A study of Mus musculus with 2 samples.

Results

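The 300 loci described here are the places where EP300 tags were packed most densely in the mouse cell line melan-a. This line grows without limit and derives from melanocytes, the pigment-producing cells of the skin and hair follicle. The loci were chosen by tag density from 3573 EP300 loci found in both of 2 replicate peak lists. A shared locus was the merged interval of replicate 1 and replicate 2 peaks that overlapped by at least 1 bp, and the pair of peaks with most summed tags stood for it. Its density score was the lower of the tags per kb of peak length in both lists. A locus at chromosome 17, 39979456 to 39986263, in a stretch of very high background (1095 and 1163 tags per kb, but 1.97-fold and 3.61-fold enrichment), was left out beforehand, and the remaining 3572 were ranked. The score therefore decided the set, so densities, lengths, fold enrichments and summits are given below as a description of the same lists. H3K4me1 was measured separately and had no part in the choice.

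The study mapped EP300 and H3K4me1 by ChIP-seq in untreated cells whose strain is labelled C57BL/6 Ink4a -/-, with the antibodies anti-p300 and anti-H3K4me1. There was 1 sample for each antibody, each standing for 2 replicates of a single cell line, and nothing in the labels says that these were separate cultures. EP300 has 2 peak lists and H3K4me1 has 1 list of 59923 regions, all in mm9 coordinates. With 1 sample per mark no test over samples was possible, and loci of a sample are not replicates. Shares are given with exact binomial (Clopper-Pearson) 95% intervals and medians with the 95% interval from binomial order statistics; both cover counting error only. The lists hold positions without gene names, so neither the nearest genes nor the melanocyte identity of the cells was checked here.

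EP300 is a histone acetyltransferase and coactivator. It does not read DNA sequence itself but is brought to enhancers and promoters by transcription factors, and it acetylates the neighbouring nucleosomes. H3K4me1, placed on nucleosomes of enhancers by the KMT2C and KMT2D methyltransferases, typically flanks the stretch of open DNA on which the factors sit. A bound enhancer can thus appear as a dip between a pair of H3K4me1 peaks, and in melanocytes MITF and SOX10 are among the factors that bind such enhancers.

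EP300 tags at the densest loci ranged from 88.6 to 301 per kb in replicate 1, with a median of 109.8, and from 88.6 to 409 per kb in replicate 2, with a median of 110.7. The other 3272 shared loci had medians of 57.5 and 60.2 per kb. Most of the set lay close to its lower limit, since 3 in 4 of the loci scored under 118. The peaks held a median of 156 tags in replicate 1 and 175 in replicate 2, against 61 and 69 at the other shared loci. Filtered ChIP depth was 31439027 and 32355042 tags, so the counts of both lists stand on a similar footing.

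The densest locus of all did not look like the rest. It lay at chromosome 11, 108872492 to 108873864, with 301 tags per kb in replicate 1 and 409 in replicate 2, yet it was only 4.26-fold and 6.48-fold enriched over the local background that the peak caller took from the control. Dividing its density by its fold enrichment, a rough guide to that background, gave 70.6 and 63.1 tags per kb, whereas the median over the 300 loci was 6.83 and 7.96. H3K4me1 was first met 2443 bp beyond its edge. This place thus ranked high by tags alone and low by enrichment.

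The second locus, at chromosome 13, 23851908 to 23854039, was dense and highly enriched at once. It held 274 and 275 tags per kb, and the summits of both lists were 1 bp apart. Its background guide was 4.34 and 4.78 tags per kb, below the median of the set. Even so, H3K4me1 was sparse there, with 2 regions and 600 bp of H3K4me1 within 10 kb of its centre, compared with a median of 4 regions and 3853 bp for the set. Next in order came chromosome 14, 118450921 to 118452798, with 214 and 218 tags per kb and a 4350 bp H3K4me1 region starting 354.5 bp to the right of its centre.

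The loci after these had densities close to each other. Chromosome 2, 45211638 to 45213643, held 197 and 204 tags per kb. On chromosome 4, a locus at 80465062 to 80466819 with 228 and 191 tags per kb and another at 80442420 to 80444373 with 186 and 175 lay just over 20 kb apart. Each had a shared locus of lower density near it, 7003 bp and 6931 bp away, so that both belong to a stretch with several EP300 sites. Chromosome 5, 58534508 to 58536476, had 188 and 190 tags per kb, and its centre lay in an H3K4me1 gap of 1050 bp. At chromosome 15, 93359836 to 93361846, the values were 185 and 205 tags per kb, in a gap of 1100 bp. At chromosome 6, 12469988 to 12472055, they were 183 and 198, in a gap of 950 bp, and fold enrichment differed more than density, at 17.5-fold and 28.9-fold. Chromosome 10, 38272754 to 38274387, with 181 and 178 tags per kb, had a single H3K4me1 region within 10 kb, 650 bp wide, on its left side. Of the 10 densest loci, only those on chromosomes 5, 15 and 6 and the chromosome 4 locus at 80442420 were centred in a gap.

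The limit of the set falls in a continuum. The last loci inside scored 88.7 (chromosome 9, 104333933 to 104335625), 88.6 (chromosome 10, 120943245 to 120944648) and 88.58 (chromosome 6, 48734759 to 48736316). The first outside scored 88.55 (chromosome 5, 58544685 to 58545881), 88.4 (chromosome 8, 14635795 to 14636786) and 88.4 (chromosome 15, 36370640 to 36371931). The last locus inside was 6.87-fold and 6.05-fold enriched and the first outside 10.7-fold and 11.7-fold, so fold enrichment did not separate them.

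**Figure D1:**
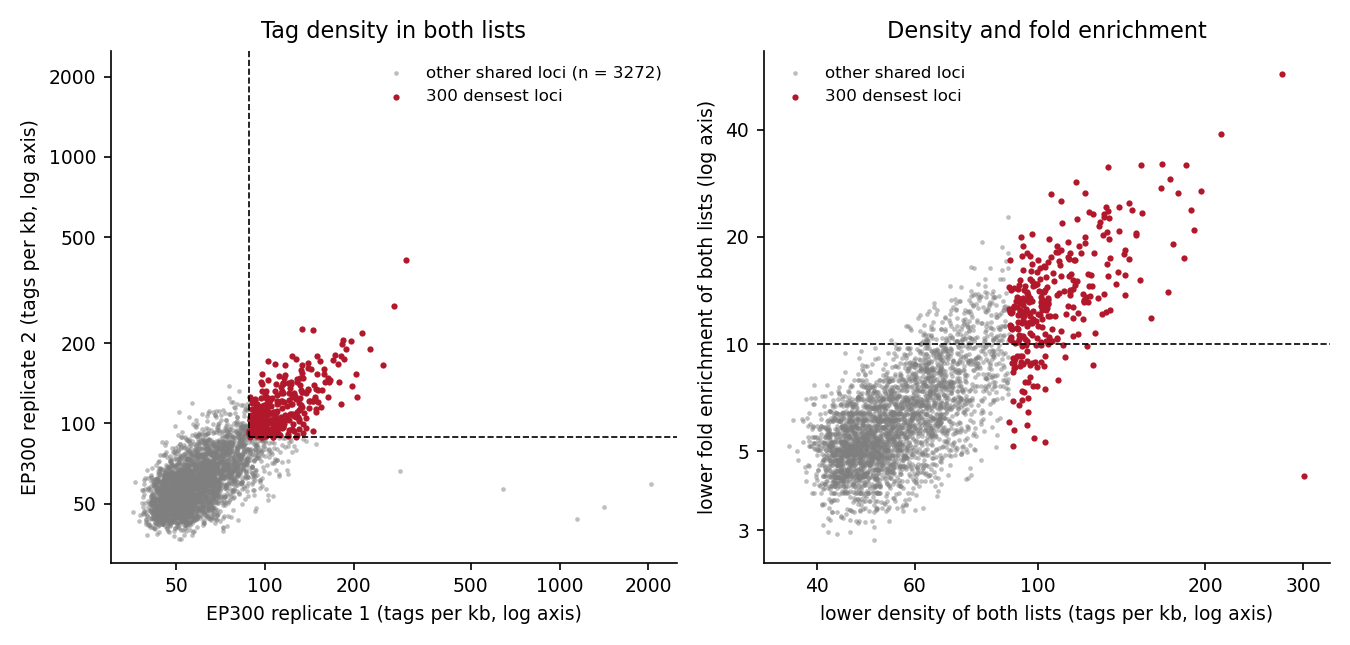
Left, EP300 tags per kb in replicate 1 and replicate 2 for each shared locus (log axes), with the 300 densest in red and dashed lines at the lower limit of 88.6. Right, the lower of the 2 densities against the lower of the 2 fold enrichments (log axes, dashed line at 10-fold); the red point at the bottom right is the locus with 301 tags per kb and 4.26-fold enrichment.

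Fold enrichment followed density loosely. The median was 16.2-fold in replicate 1 (range 4.26 to 63.2) and 14.0-fold in replicate 2 (5.17 to 57.5). At least 10-fold enrichment in both lists was reached by 249 of the 300 (83%), against 13.2% of all shared loci, a share that the choice by density makes high. Under 10-fold in both lists were 12 of the loci. Across the 300 loci, which share their libraries, density score and the lower fold enrichment had a Spearman rho of 0.565.

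Both replicates gave similar densities, and by median and quartiles this held over all shared loci too. There the ratio of replicate 1 to replicate 2 had a median of 0.969, with quartiles of 0.855 and 1.11. At the densest loci the ratio had a median of 0.998, with quartiles of 0.884 and 1.12. The densities of both lists were within a factor of 1.5 of each other at 291 of the densest loci. Replicate 1 was the lower at 153 loci and replicate 2 at 147. Because the lower value makes the score, a locus dense in a single list cannot enter, which narrows this spread. The highest ratios were 1.63 at chromosome 7, 94655110 to 94658068 (206 and 126 tags per kb), 1.55 at chromosome 7, 82208161 to 82209397 (145.7 and 93.8), and 1.54 at chromosome 14, 76262570 to 76264318 (181 and 118). The lowest were 0.589 at chromosome 15, 63447436 to 63449557 (133 and 226 tags per kb), 0.601 at chromosome 7, 77966780 to 77968684 (103 and 171), and 0.640 at chromosome 6, 97995674 to 97997667 (97.8 and 153). All 6 of these had their centre in an H3K4me1 gap, of 600 bp to 1350 bp.

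The peak summits of both lists nearly coincided. The median distance was 39.5 bp (interval 34 to 47), against 46 bp for the next 300 loci by density and 70 bp (interval 67 to 74) for all other shared loci. Summits within 50 bp of each other were found at 172 loci (57.3%), against 40.1% of all shared loci. Summits over 200 bp apart were found at 18 (6.00%), against 16.6%. At the next 300 these shares were 52.7% (interval 47.0% to 58.4%) and 6.33% (interval 3.86% to 9.71%). More tags can place a summit more exactly, and these loci were chosen for their tags; the part of tag number in the distances was not tested. The largest distance was 1108 bp, at chromosome 12, 70488994 to 70491384, where replicate 1 had 2 peaks within the locus. Next were 535 bp at chromosome 1, 78055877 to 78058389, and 501 bp at chromosome 4, 99169019 to 99170623. In 293 of the 300 loci (97.7%) each list had a single peak, a share like the 98% of all shared loci.

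Merged lengths ran from 935 bp to 3690 bp with a median of 1611 bp (interval 1536 to 1680), against 1511.5 bp (interval 1463 to 1592) for the next 300 and 1247 bp for all other shared loci. The peak length of each list, not the merged length, stands in the denominator of the score, so length is tied to the rule. Longest were chromosome 6, 137465859 to 137469548 (3690 bp), chromosome 8, 129088669 to 129092077 (3409 bp), and chromosome 16, 86142275 to 86145587 (3313 bp). At the first of them the replicate 2 peak spanned the whole locus, while the replicate 1 peak, at 251 tags per kb against 166, was shorter. Shortest were chromosome 1, 57115866 to 57116800 (935 bp), chromosome 16, 30475663 to 30476654 (992 bp), and chromosome 9, 70682356 to 70683361 (1006 bp). The centres of these short loci all lay in H3K4me1 gaps, of 500 bp, 800 bp and 800 bp.

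H3K4me1 stood on both sides of most of the densest EP300 loci. A locus was called as lying in a gap when its centre, the midpoint of the overlap of the 2 peaks, was outside any H3K4me1 region and had a region within 1000 bp on each side. This held for 241 of the 300 loci (80.3%, interval 75.4% to 84.7%), against 62.3% of all shared loci. The share was 69.7% (interval 64.1% to 74.8%) in the next 300 by density and 60.7% (interval 58.97% to 62.3%) over all other shared loci. The centre lay inside a region at 8 loci (2.67%, interval 1.16% to 5.19%), against 12.2% of all shared loci and 5.33% (interval 3.08% to 8.52%) of the next 300. Without replicate 1, over the 300 densest peaks of replicate 2 alone, the share inside a region was 8.67% (interval 5.74% to 12.4%). With the limit at 500 bp in place of 1000 bp, the share in gaps was 45% (interval 39.3% to 50.8%), close to the 41.5% (interval 39.8% to 43.2%) of all other shared loci.

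Among the remaining loci, 44 (14.7%) had H3K4me1 on a single side within 1000 bp of the centre, against 19% of all shared loci, and 7 (2.33%) had none there, against 6.49%. The single side was the left at 21 loci and the right at 23. On the empty side of these 44 the nearest region lay a median of 6274 bp away, with quartiles of 2869 bp and 21326 bp. Of the 44, 9 had the region on that side within 2000 bp.

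Distances from the locus edges favour long loci, and the densest were longer than the other shared loci taken whole. A region within 1000 bp of the edges was found for 296 loci (98.7%, interval 96.6% to 99.6%), against 96.1% of all shared loci. The share was 99% (interval 97.1% to 99.8%) in the next 300 by density, so it did not set the densest loci apart from them. A region was overlapped by 290 loci (96.7%), against 90.6% of all shared loci and 94.7% (interval 91.5% to 96.9%) of the next 300. Overlap with at least 2 regions, as a locus bridging a gap has, occurred at 234 loci (78.0%), against 59.7% of all shared loci. In the next 300 it occurred at 66.7% (interval 61.0% to 72.0%). Among the densest loci, exactly 2 regions were overlapped by 218, 1 region by 56, and 3 or more by 16.

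**Figure D2:**
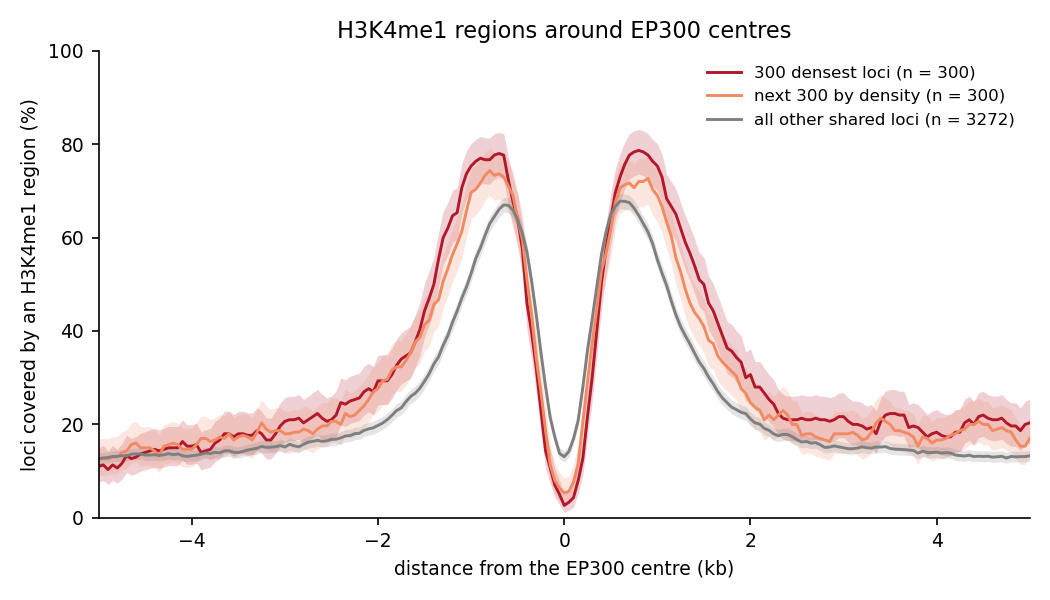
Share of loci covered by an H3K4me1 region at each distance from the EP300 centre, in steps of 50 bp, with 95% binomial intervals as shading. The 300 densest loci go from 2.67% at the centre to 78.0% at 700 bp on the left and 78.7% at 800 bp on the right; all other shared loci go from 13.1% to 67.0% at 650 bp and 67.8% at 600 bp.

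Coverage by H3K4me1 regions was lowest at the centre of the densest loci and rose steeply on both sides. It reached 78.0% (interval 72.9% to 82.6%) at 700 bp on the left and 78.7% (interval 73.6% to 83.2%) at 800 bp on the right. For all other shared loci the highest values were 67.0% and 67.8%, and they came nearer to the centre, at 650 bp and 600 bp. The next 300 loci by density reached 74.3% (interval 69.0% to 79.2%) at 800 bp and 72.7% (interval 67.2% to 77.6%) at 900 bp, with intervals that overlap those of the densest loci. A dip here means the absence of a called region, which is not the absence of the mark.

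Gap widths exceeded those of the other shared loci taken whole, while their interval overlapped that of the next 300. At the 241 loci in gaps the median width was 750 bp (interval 700 to 800), with quartiles of 600 bp and 900 bp, compared with 700 bp (interval 650 to 750) for the next 300 loci and 600 bp (interval 600 to 650) for all other shared loci in gaps. Region edges lie on a 50 bp grid, so the difference from the next 300 is a single step. Ranked by the lower fold enrichment instead, the top 300 had a median gap of 650 bp (interval 650 to 700). That interval meets the one of all other shared loci in gaps. The EP300 summits of both lists fell within the gap at 237 of the 241 loci (98.3%), against 90.7% of all shared loci in gaps. In the next 300 they did so at 206 of 209 loci in gaps (98.6%). The midpoint of the summits lay a median of 75.5 bp from the midpoint of the gap, and 80 bp at all other shared loci in gaps, which is no closer beyond the intervals (63 to 87.5 bp and 75.5 to 85 bp).

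Gap width varied among the densest loci without following density or length. Spearman's rho between the score and gap width was -0.0097, and between merged length and gap width 0.108, across 241 loci. The widest gaps were 1650 bp at chromosome 3, 132527587 to 132528999, 1650 bp at chromosome 10, 24990872 to 24992918, and 1600 bp at chromosome 7, 122767005 to 122769547. The locus on chromosome 3 fitted entirely in its gap, 51 bp from the nearest region. The narrowest were 200 bp at chromosome 4, 144593593 to 144595056, 200 bp at chromosome 9, 35179446 to 35180603, and 300 bp at chromosome 7, 151763298 to 151764707. Regions beside these narrow gaps stood high in the H3K4me1 list, with best ranks of 92, 992 and 33 among 59923 regions.

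**Figure D3:**
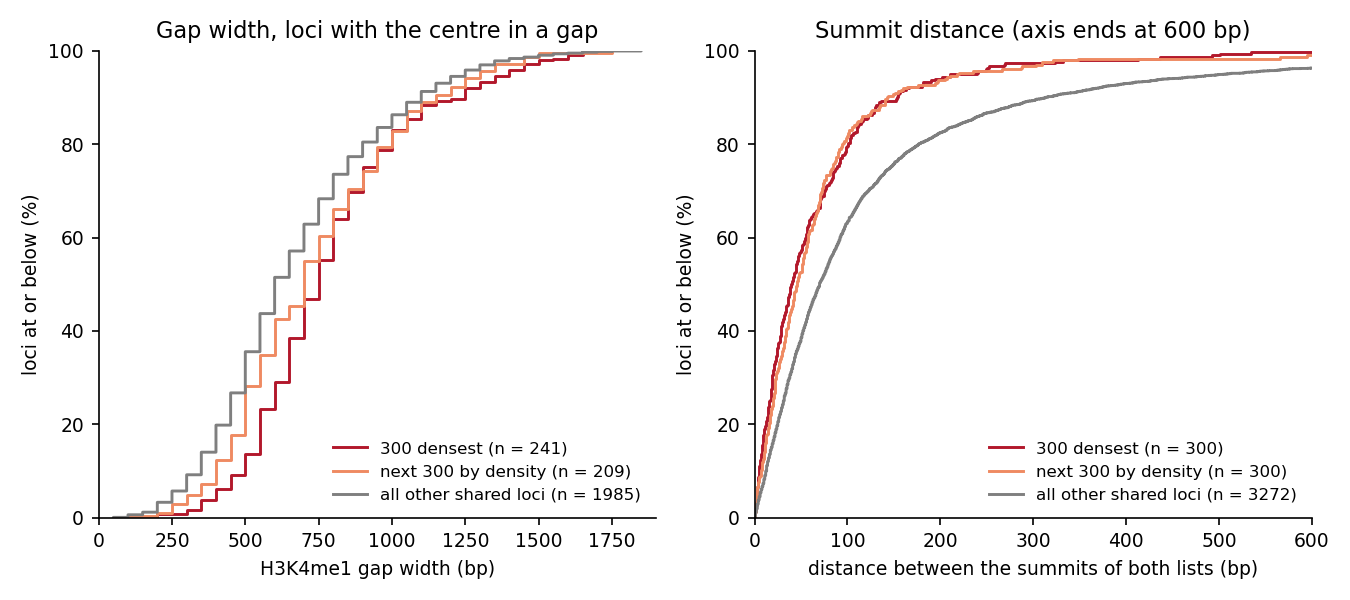
Cumulative share of loci by H3K4me1 gap width (left, loci with their centre in a gap) and by distance between the EP300 summits of both lists (right, axis ends at 600 bp). Median gap widths are 750 bp for the 300 densest loci, 700 bp for the next 300 and 600 bp for all other shared loci; median summit distances are 39.5 bp, 46 bp and 70 bp.

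Flanking regions were wide against the whole H3K4me1 list, and the better-ranked flank of each locus stood high in it. Flanking regions had a median width of 1000 bp (interval 950 to 1050), against 950 bp (interval 900 to 1000) at the next 300, 850 bp at all other shared loci in gaps and 500 bp over the whole H3K4me1 list. The better-ranked flank had a median percentile rank of 92.7 (interval 90.8 to 94.5; 100 is the top of the list), compared with 91.6 (interval 88.6 to 93.7) for the next 300 and 88.5 (interval 87.6 to 89.3) for all other shared loci. In the authors' maximum log2 fold change, that of the higher flank had a median of 4.54, against 4.49 at the next 300 and 4.38 at all other shared loci. Both flanks were in the top quintile of the list at 83 of the 241 loci in gaps (34.4%), against 29.3% of all shared loci in gaps and 38.8% of the next 300. By these intervals the rank of the better flank was above that of the other shared loci taken whole, but not above that of the 300 loci that follow in density. Taking the better flank raises its rank against the whole list by selection. The worse-ranked flank, lowered in the same way, had a median percentile rank of 69.5 (interval 63.4 to 74.8). It was 72.1 (interval 67.5 to 75.1) at the next 300 and 64.8 (interval 62.3 to 66.4) at all other shared loci in gaps. For the worse flank the interval of the densest loci overlapped each of the others.

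Sorted by width within each locus, which fixes their order, the wider flank had a median of 1350 bp and the narrower of 800 bp, against 1050 bp and 650 bp at all other shared loci in gaps. Widths of the left and right flank had a Spearman rho of 0.204 across the 241 loci. The left was the wider at 126 loci and the right at 109, with 6 equal. H3K4me1 reached its highest score in a flank at a median of 835 bp from the EP300 centre (interval 804.5 to 869.5), against 697.5 bp (interval 685 to 708.5) at all other shared loci in gaps and 791.5 bp (interval 750 to 834) at the next 300. From one flank's highest point to the other's was a median of 1700 bp (interval 1650 to 1800), compared with 1450 bp and 1650 bp (interval 1550 to 1750).

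Read from the side of H3K4me1, 539 of the 59923 regions (0.899%) overlapped 1 of the 300 loci. Of these, 304 regions (56.4%) came from the top quintile of the list and 22 (4.08%) from the lowest, against 49.1% and 5.20% of the 5409 regions that overlapped any shared locus. Wide regions have more room to meet a locus, and the overlapping regions were wider, so the quintile shares are not corrected for width. Of the 100 best-ranked regions, 49 overlapped some shared EP300 locus and 8 overlapped 1 of the 300 densest. That is 16.3% of the 49, compared with 9.96% over the whole list. The 16.3% rests on those 8 regions, and no interval was computed for it.

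H3K4me1 surroundings changed gradually with EP300 density over the shared loci. In bins of 300 loci from the densest down, the share of centres in gaps was 80.3%, 69.7%, 75.3%, 69.7% and 66.0% in the first 5 bins and 42.6% (interval 36.7% to 48.8%) in the last, of 272 loci. The share inside a region went the other way, from 2.67% to 21.3%. Gap width had medians of 750 bp, 700 bp, 700 bp and 650 bp in the first 4 bins and 550 bp in the last. The second bin lay below the third in its share of gaps, with overlapping intervals, so the order is not strict.

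**Figure D4:**
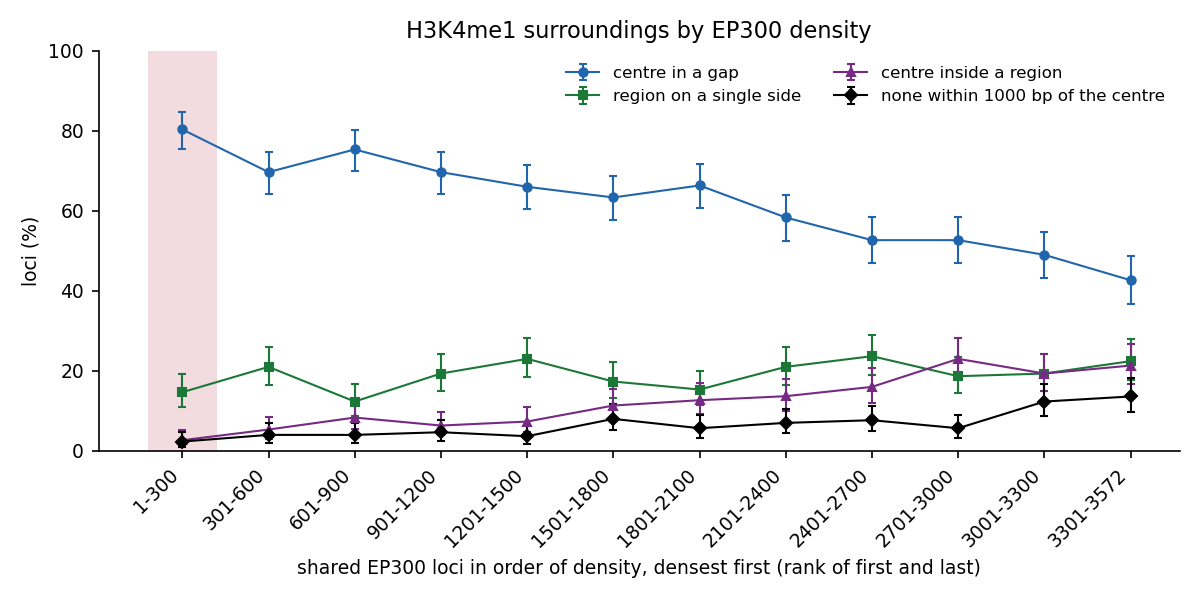
Share of loci by H3K4me1 surroundings in bins of 300 shared loci ordered by EP300 density (272 in the last bin), with exact 95% binomial intervals; the shaded bin holds the 300 densest. Centres in gaps go from 80.3% to 42.6% and centres inside a region from 2.67% to 21.3%.

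Within the set, density made little difference to H3K4me1 in bins of 100 loci. Such bins do not resolve the 10 densest, most of which were not centred in a gap. Centres in gaps numbered 81, 77 and 83 in the first, second and last 100 loci, and gap widths had medians of 700 bp, 750 bp and 750 bp. The better flank had a median percentile rank of 92.9, 93.1 and 92.3. None of the first 100 centres lay inside a region, which allows a share of up to 3% by the limit of 3 counts (the exact interval ends at 3.62%), against 3 of the second and 5 of the last 100, with overlapping intervals.

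The 4 loci without H3K4me1 within 1000 bp of their edges included the 2 densest, already described. The others were at chromosome 1, 193398623 to 193399904, with 149 and 113 tags per kb and 23.9-fold and 19.35-fold enrichment, and at chromosome 13, 28509038 to 28510464, with 108 and 102 tags per kb and 12.9-fold and 12.7-fold enrichment. Their nearest regions were 1624 bp and 1389 bp away. Within 10 kb of its centre the locus on chromosome 1 had 200 bp of H3K4me1, the lowest amount in the set, shared with 1 other locus. Apart from the locus on chromosome 11, these sites were enriched at least 12.7-fold in both lists.

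Of the 8 loci centred inside an H3K4me1 region, a group named after its values were seen, 3 were on chromosome 6, at 100748816 to 100751747, 88921385 to 88923023 and 17465307 to 17467442. The densest of the 8 was at chromosome 2, 94758570 to 94760303, with 109 tags per kb in each list. Chromosomes 1 (153629423 to 153631763), 15 (63557757 to 63560764), 4 (125808509 to 125810445) and 12 (13083118 to 13085207) had 1 each. Each of the 8 overlapped at least 2 regions. With the midpoint of the summits as centre in place of the midpoint of the overlap, 0.667% of the 300 loci were inside a region, against 11.9% of all other shared loci.

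The densest loci were spread over all 19 autosomes, unevenly. Chromosome 6 held 35 (11.7%, interval 8.26% to 15.9%), against 6.14% of the other shared loci and 5.02% of H3K4me1 regions. Chromosome 3 held 29 (9.67%, interval 6.57% to 13.6%), against 5.99% and 5.29%, and chromosome 10 held 23 (7.67%, interval 4.92% to 11.3%), against 5.50% and 4.80%. The interval of chromosome 10 holds its share of the other shared loci. The lowest autosomal counts were 6 on chromosome 19 (2%, against 2.90% of the other shared loci) and 7 on chromosome 17 (2.33%, against 3.79%), and the exact interval of each holds the share of the other loci. Chromosome X had 0 of 300, which allows a share of up to 1% by the limit of 3 counts (the exact interval ends at 1.22%). It held 26 of the other 3272 shared loci (0.795%), a share within that interval, and 2.62% of H3K4me1 regions.

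The background guide was higher on chromosome 6 than on the other chromosomes. Tags per kb divided by fold enrichment had medians of 10.04 and 11.2 over all shared loci of chromosome 6, above the 7.53 to 8.29 and 8.40 to 9.79 of the other autosomes. Among its 35 densest loci, 22 reached 10-fold enrichment in both lists, against 249 of all 300 (83%) and 13.2% of all shared loci. When loci were ranked by the lower of their fold enrichments instead, which divides by the background, chromosome 6 held 19 of the top 300 (6.33%) and chromosome 3 also 19, while chromosome 10 held 22 and chromosome X 1. The lead of chromosomes 6 and 3 ended with that ranking and the count of chromosome 10 hardly moved. Over all shared loci of chromosome 3 the guide was 7.81 and 9.08, within the ranges given above. Whether background shaped the counts of chromosomes 6 and 3 was not tested.

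**Figure D5:**
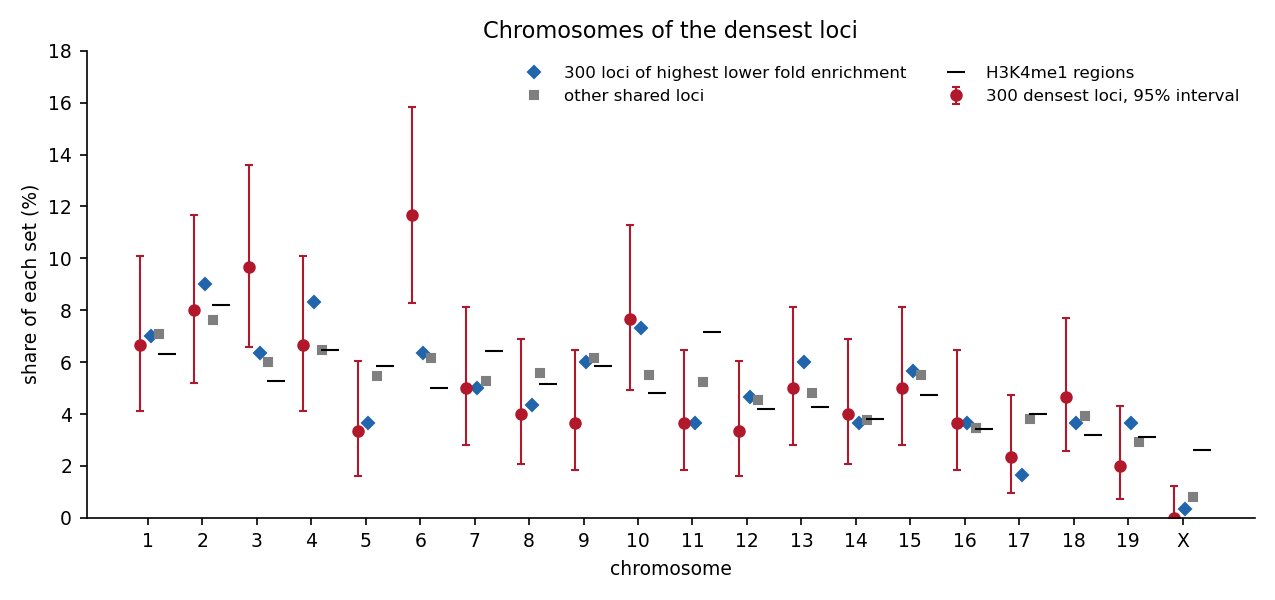
Share of each set of loci or regions on each chromosome. Red points are the 300 densest loci with exact 95% intervals, blue diamonds the 300 loci with the highest lower fold enrichment, grey squares the other shared loci and black dashes the H3K4me1 regions; chromosome 6 stands at 11.7% by density and 6.33% by fold enrichment.

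Another of the 300 within 20 kb was found for 27 loci (9%, interval 6.01% to 12.8%), in 12 pairs and 1 group of 3. Among the 300 loci ranked highest by the lower of their fold enrichments the share was 3.33% (interval 1.61% to 6.04%). The group of 3 spans chromosome 1, 78053440 to 78066969, with 133, 95.1 and 89.1 tags per kb in the lower list, and it overlaps 8 H3K4me1 regions. All 3 centres were in gaps, of 550 bp, 450 bp and 750 bp, and the first 2 loci are 470 bp apart, sharing the H3K4me1 region of 1900 bp that lies between their centres. The pair with the highest scores spans chromosome 3, 79792485 to 79808137, with 149.8 and 172 tags per kb and 7 H3K4me1 regions. Next came the pair at chromosome 4, 144589427 to 144595056, with 103 and 154 tags per kb, whose best H3K4me1 region ranked 92.

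Counted over all 3572 shared loci, which leaves more possible neighbours, the share was higher. A further shared locus of any density lay within 20 kb of 125 of the 300 loci (41.7%, interval 36.0% to 47.5%), against 32.8% of all shared loci and 40% of the next 300. Within 10 kb of the centre the set had a median of 3853 bp covered by H3K4me1 (interval 3300 to 4250), against 2950 bp (interval 2850 to 3050) at all other shared loci and 3550 bp (interval 3100 to 4000) at the next 300. The number of regions there had a median of 4 in each of these sets, with quartiles of 3 and 6 for the densest loci and of 2 and 6 for all other shared loci.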

How the data were processed

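EP300 peaks were called by the authors with MACS 1.4.1 20110627, each replicate against its own control, per the file headers, at a p-value threshold of 1e-05 and with at most 2 duplicate tags per position. Per the file headers, the deposited EP300 lists (8451 and 10351 peaks) give a count of tags, a fold enrichment of summit height against nearby background, a significance score and the percent of false discoveries. The deposited H3K4me1 list gives a rank, a score, a maximum log2 fold change, a -log10 p-value and a false discovery rate as a fraction, per the file headers; caller, pooling of replicates and depth of this list were not given in the sources used here. The build is mm9, per the submitters' processing notes.

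Shared loci, scores, H3K4me1 gaps and distances were computed with Python 3.11.15, NumPy 2.4.6, pandas 2.3.3 and SciPy 1.17.1, by functions tested on simulated data. The members and lists were chosen with earlier results of these data known. Named loci are the 10 densest, the 3 on each side of the limit, the extremes (3 each) of gap width, length, summit distance and density ratio, the 3 largest groups within 20 kb, and all loci without H3K4me1 within 1000 bp of their edges. Alternatives changed the replicate used, the score, the number of loci, the overlap, the thresholds of both marks, the distance limits and the centre. Gene lists, start sites and motifs were planned only for an annotation and genome of mm9 and are not analysed here.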

Additional observations from a re-analysis of the deposited data

How the results depend on the processing

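Of 114 values recomputed under the alternatives, 91 stayed within the 95% interval of the main value and 23 moved beyond it; 7 of the 114, without chromosome 6 or with 10-fold enrichment in both lists, were chosen after the data were seen, and none of these moved. Leaving out a replicate (all peaks of the other list in place of shared loci, the 300 densest taken) gave 72.0% to 75.3% of centres in gaps, 4.33% to 8.67% inside a region, 96.3% to 97.0% with H3K4me1 near the edges and median lengths of 1336.5 bp to 1414.5 bp, since a single peak is shorter than a merged locus. Ranking by fold enrichment gave a median gap of 650 bp, 3.33% with a neighbour of the set within 20 kb and 6.33% on chromosome 6, with 203 of the 300 loci in common. With 150 loci, 4% had such a neighbour, and with 600 loci 13.2% did and 75% were in gaps; the neighbour share moves with the number of loci by construction. Neighbours within 10 kb gave 4.33% and within 50 kb 14.3%. With the upper 50% of the H3K4me1 list, 94% had a region near, 60% were in gaps (41.1% of all other shared loci), 30.3% had a single side, flanks had a median of 1125 bp and the better flank a percentile rank of 94.9, as fewer and stronger regions remained. H3K4me1 within 500 bp gave 45% in gaps and 39% with a single side, within 2000 bp 99.7% near the edges. The midpoint of the summits as centre gave 0.667% inside a region. No paired analysis was possible because each mark is 1 sample and no test between groups was made. The H3K4me1 depth is unknown, and EP300 tag counts limit how exactly edges and summits are placed.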

Other observations

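Some shared loci were as dense as the set in a single list only. Replicate 1 alone reached the lower limit of 88.6 tags per kb at 141 further shared loci and replicate 2 alone at 171. The most uneven of them held 2037 tags per kb in replicate 1 and 59.1 in replicate 2.

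Dense peaks absent from the other list were few. Of 451 replicate 1 peaks at or above 88.6 tags per kb, 8 (1.77%) overlapped no replicate 2 peak, and of 488 replicate 2 peaks 15 (3.07%) overlapped no replicate 1 peak. The densest of these, at chromosome 11, 88828845 to 88831005, held 273 tags per kb in replicate 2 with 3.49-fold enrichment, and its centre was inside an H3K4me1 region. Next were chromosome 5, 147072126 to 147073219, with 210 tags per kb and 5.93-fold enrichment, and chromosome 6, 3150966 to 3151717, with 178 and 5.12-fold. These places had H3K4me1 regions no closer than 7131 bp and 104033 bp. In replicate 1 the densest was chromosome 17, 36367793 to 36369081, with 104 tags per kb and 4.37-fold enrichment. High density with low fold enrichment, as at the densest shared locus, thus recurred in each of the peaks named here.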
